A study of Mus musculus with 12 samples.

Results

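Tnfrsf4, Tnfrsf9 and Tnfrsf18 encode the co-stimulatory receptors OX40, CD137 and GITR. The screen held 42 constructs that carried guides against these genes and against no other gene, of 689 constructs in all. They were chosen by the target names written in each construct, from which the non-targeting fillers were dropped, and no measured value entered the choice. They form 7 combinations of 6 constructs each: the 3 single genes, the 3 pairs and the triple.

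The study screened lentiviral constructs of 4 sgRNAs each in C57BL/6 mouse CD8+ T cells, with mKate2 as the mark of transduction. In the tumour-infiltrating lymphocyte (TIL) group, transduced cells had been given to mice 12 days after inoculation of a tumour, and CD8+mKate2+ cells were sorted from the tumours 7 days later. The deposited screen bears the name Hepa1-6. Each mouse was given 10000000 cells, and the share of mKate2+ cells is stated as 5 to 10%. Each TIL replicate pooled the cells of 3 to 4 mice, with 20000 to 40000 sorted cells per tumour, and human Raji cells were added as carrier before DNA extraction. The starting reference (SR) group was the same transduced population, frozen when the rest was transferred. Both came from cells transduced after 24 h of stimulation and transferred or frozen 48 h later. There were 3 replicates of each group, each read over 2 regions of the construct, which gave 12 samples. Region 1 covers the first and second spacer of a construct and region 2 the second and the next. The read-out was construct DNA, so neither marker genes of CD8+ T cells nor editing of the targets was measured, and fewer cells cannot be told apart from less DNA per cell. SR was amplified by direct PCR and TIL by PCR in 2 steps, so amplification and condition cannot be told apart.

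All 3 genes belong to the tumour necrosis factor receptor superfamily. These receptors are induced or raised on T cells after antigen stimulation, bind ligands on antigen-presenting cells, and recruit TRAF adaptor proteins that activate NF-kappaB. Signals through OX40 and CD137 are known for prolonging survival and expansion of activated T cells, and CD137 is known for acting on CD8+ T cells. GITR is known as a co-stimulator of effector T cells that is also abundant on regulatory T cells. In the mouse annotation of the GRCm38.p6 assembly, used for names and order only, the 3 genes lie on the same chromosome, and Tnfrsf4 and Tnfrsf18 are close neighbours with 1 annotated gene between them.

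Each gene was targeted with 9 guides of 20 bases, 27 in all. They are shown because constructs are named here by the guides they carry, in their order in the construct. Capitals mark the longest run, if of 10 or more bases, that a guide shares with another guide of the same gene, on either strand. Further shared runs of a guide are not marked: the lower-case bases of Tnfrsf4-a lie in its run shared with Tnfrsf4-e. For Tnfrsf4 the guides were the following, of which a, e and h overlap in sequence:
Tnfrsf4-a: accaGGCACCCAACCTCGGC
Tnfrsf4-b: cagcttcaggaccccgatcc
Tnfrsf4-c: ccacagtactcacttggtcc
Tnfrsf4-d: gagccgctgtgatcatacca
Tnfrsf4-e: gtagACCAGGCACCCAACCT
Tnfrsf4-f: tcacacttggagttacagca
Tnfrsf4-g: tcccacagttgtaccttatc
Tnfrsf4-h: tcctGCCGAGGTTGGGTGCC
Tnfrsf4-i: tgctgtcgtgagtgccagcc

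The guides against Tnfrsf9 were the following, of which c and e overlap on opposite strands:
Tnfrsf9-a: accaggctgacagttatcac
Tnfrsf9-b: ccaagtaccttctccagcat
Tnfrsf9-c: GCAAAGCCGATGTCAGCgcc
Tnfrsf9-d: gcaggtccttaccttgttcc
Tnfrsf9-e: GCTGACATCGGCTTTGCtgc
Tnfrsf9-f: gtgcatacgtacttcgtcca
Tnfrsf9-g: taagctgctctctagacgga
Tnfrsf9-h: tgtgaaaaggactgcaggcc
Tnfrsf9-i: tgtgcttaagaccgggacca

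The guides against Tnfrsf18 shared no run of this length:
Tnfrsf18-a: aagcactacccctgccaacc
Tnfrsf18-b: gagaagcactatgggggcat
Tnfrsf18-c: gcagtgaccgtcacgacctg
Tnfrsf18-d: gccatgggcaccttctccgc
Tnfrsf18-e: ggggcatgggccatgctgta
Tnfrsf18-f: gtcacacctgagtaccactg
Tnfrsf18-g: taccttgagactccaccctc
Tnfrsf18-h: tcctcagctgccatatgtgc
Tnfrsf18-i: ttattcttgtccaggcaagg

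Guide GC content ran from 45 to 70% for Tnfrsf4 and for Tnfrsf18 and from 50 to 65% for Tnfrsf9. None of the 27 lay within the window from 250 bases before to 50 after an annotated start of its gene. The same guides recur with other partners, so constructs share guides and are not replicates. A Tnfrsf4 guide stood in 8 to 14 library constructs, a Tnfrsf9 guide in 7 to 13 and a Tnfrsf18 guide in 6 to 12, and each guide stood in 1 to 5 of the 42 constructs.

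Totals ran from 8288404 to 23012713 scaled reads in TIL libraries and from 9963617 to 25646820 in SR libraries. A scaled read is the authors' read number of a construct after a library factor and rounding. The median of the 42 constructs lay between 0 and 6 scaled reads in the TIL libraries, against 14836 to 39003 in the SR libraries. The number of the 42 at 0 ran from 5 in both regions of TIL 1 to 36 in region 2 of TIL 3, and was 0 in every SR library. Their starting levels ran from 149 to 4929 CPM in SR (the share of a library's scaled reads, times 1000000) with a median of 1460, against a library median of 1136.

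In the tumours their reads came from few constructs. Detection is used here for more than 1000 scaled reads in both regions of a TIL replicate. The 252 TIL values of the 42 constructs left a wide gap around this threshold, with 251 as the highest value below it and 7793 as the lowest above it. In TIL 1, 2 and 3, 5, 4 and 4 of 42 constructs were detected, or 13 of 126 cases (10.3%, Wilson 95% interval 6.13 to 16.9%), where a case is a construct in a replicate. Over the whole library 11.4% of cases were detected. The share was 10.3 ± 1.37% for the 42 constructs and 6.35 ± 4.18% for the 84 non-targeting constructs (SD, n = 3 replicates). By replicate it was 11.9, 9.52 and 9.52% for the TNF receptor constructs, against 5.95, 2.38 and 10.7% for the non-targeting constructs. It was higher in TIL 1 and TIL 2 and lower in TIL 3, and the difference was not tested because the threshold was set with these data known. The 2 classes also differed in starting level, with a median of 1460 CPM in SR for the TNF receptor constructs and 806 CPM for the non-targeting ones. In the rest of the library detection was more frequent at higher SR level, as given below. The part of starting level in the difference was not tested. Intervals cover counting error only and take cases as independent, and PCR reads are not independent molecules.

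Detection was missing in all replicates for 32 constructs. Of the rest, 8 had it once, 1 had it in 2 replicates and 1 in all 3. At least 1 detection was thus seen for 10 of 42, where 26.3% of library constructs had at least 1. Constructs were also grouped by quintile of SR level over the library. In the highest quintile 6 of 33 cases of these constructs were detected (18.2%), against 24.7% of cases of the rest of the library. In the next lower quintiles it was 5 of 36 (13.9%) against 15.6%, 1 of 24 (4.17%) against 11.9% and 0 of 15 against 3.76%, while in the lowest it was 1 of 18 (5.56%) against 2.27%. Detection rates of the rest of the library, applied quintile by quintile, would give 17.6 detected cases, and 13 were counted.

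The share of all reads taken by the 42 constructs was lower in TIL than in SR in every replicate. It was 5.81, 5.95 and 4.46% in TIL 1, 2 and 3, against 7.24, 7.25 and 7.48% in SR, while the constructs make up 6.10% of the library. The groups did not overlap, with means of 5.41 ± 0.82% in TIL and 7.32 ± 0.13% in SR (SD, n = 3; exact two-sided permutation p = 0.1, the smallest that 3 against 3 samples allow). Non-targeting constructs moved the same way, with 6.23 ± 2.46% in TIL and 10.7 ± 0.67% in SR (SD, n = 3; exact permutation p = 0.1). Within the TNF receptor share, 1 construct took 30.8, 43.4 and 66.7% in TIL 1, 2 and 3, a different one each time. In SR the largest took 5.86, 7.31 and 7.43%.

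The first comparison asked which constructs changed between TIL and SR. Of the 42, 28 were lower in TIL and 0 higher (limma, adjusted p under 0.05 over 689 constructs). In the library 67.8% were called lower and 0.435% higher, so 28 of 42 lies near the background. At an unadjusted p under 0.05 the numbers were also 28 lower and 0 higher. The median change of the 42 was -9.31 on the log2(CPM + 1) scale, against -8.50 over all constructs. All 28 were constructs that exceeded the threshold in no region of any TIL replicate, with changes between -11.85 and -7.16. The other 14, which exceeded it at least once, had changes between -7.63 and 1.25 and did not pass.

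The second comparison set each construct against the non-targeting mean of the same sample. Of the 42, 12 were lower and 1 was higher (limma, adjusted p under 0.05), where 21.0 and 4.64% of the library were called. The median was -0.91 on the log2 scale, against -0.10 over all constructs, and 19 of 42 lay above 0, against 49.2% of the library. Of the 84 non-targeting constructs themselves, 17 were called lower and 3 higher. Their median was -0.60, and 32 of 84 lay above 0, so many constructs of the reference class also lay below its mean. The 12 lower constructs were all near absent from the tumours, with at most 14 scaled reads in any TIL library. Their mean TIL level of 0.0668 to 0.282 CPM overlapped that of the 16 other constructs that never exceeded the threshold, 0 to 2.02 CPM. Their SR level was 1318 to 4599 CPM with a median of 2088, against 149 to 2876 CPM with a median of 710 for those 16. Among near-absent constructs the calls thus went with a high starting level. Without replicate 1 or without replicate 2 the count of lower constructs was 0, and without replicate 3 it was 18. Library shares are given for the main setting only, so these counts cannot be set against a background.

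The construct called higher joined a Tnfrsf18 and a Tnfrsf9 guide, Tnfrsf18-f/Tnfrsf9-c. It had 8126, 17038 and 3493 CPM in TIL 1, 2 and 3, against 2931, 3632 and 3391 CPM in SR. TIL 1 and TIL 2 lay above every SR value, and TIL 3 lay within the range of SR. It was detected in all 3 TIL replicates, as were 0.871% of the library (6 constructs). Its change against SR was 1.25 ± 0.62 on the log2(CPM + 1) scale (SE, n = 3; limma adjusted p = 0.142), which did not pass. Relative to non-targeting constructs it was 9.65 ± 0.94 higher (SE, n = 3; limma adjusted p = 0.0131), a contrast with a class of which 70 of 84 constructs were detected in no TIL replicate. Leaving out replicate 1 ended this call (9.41, limma adjusted p = 0.174), as did leaving out replicate 2 (8.93, limma adjusted p = 0.0712) and using the authors' log2 ratios (10.28, limma adjusted p = 0.149). Without replicate 3 the change against SR was 1.85 and passed (limma adjusted p = 0.0377).

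Tnfrsf18-c/Tnfrsf4-g was the one construct detected in exactly 2 replicates. It had 8223, 433 and 0.0440 CPM in TIL 1, 2 and 3, against 2849, 1360 and 1555 CPM in SR. It was thus above SR in TIL 1, below it in TIL 2 and near absent in TIL 3. Its value relative to non-targeting constructs was 4.85 ± 3.59 (SE, n = 3; limma adjusted p = 0.377), and 8.70 without replicate 3, where it passed (limma adjusted p = 0.0338).

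The 8 constructs detected once were each abundant in a single replicate and near absent, or seen in a single region, in the others. The triple construct Tnfrsf9-b/Tnfrsf4-b/Tnfrsf18-c had 0.163, 0.161 and 29755 CPM in TIL 1, 2 and 3, against 1652, 1730 and 1651 CPM in SR. That single value was 2.98% of all reads of TIL 3, the highest of any of the 42 constructs in any replicate. Tnfrsf9-a/Tnfrsf18-d, which had the lowest SR level of the 10 detected constructs, had 8130, 3.09 and 0 CPM in TIL 1, 2 and 3, against 229, 138 and 169 CPM in SR. Among single-gene constructs, Tnfrsf4-c had 0.429, 25837 and 1834 CPM in TIL 1, 2 and 3, against 3505, 4490 and 4683 CPM in SR, and Tnfrsf4-h reached 6055 CPM in TIL 1.

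For Tnfrsf9 alone, Tnfrsf9-c, the construct with the highest SR level of the 42, had 0.464, 16189 and 0.330 CPM in TIL 1, 2 and 3, against 3937, 5298 and 5553 CPM in SR. Tnfrsf9-e reached 4900 CPM in TIL 3. For Tnfrsf18 alone, Tnfrsf18-b reached 17916 CPM in TIL 1 and Tnfrsf18-d 3280 CPM in TIL 3. Relative to non-targeting constructs none of the 8 passed (limma adjusted p from 0.298 to 0.832), and their values ran from 1.13 to 5.95. For 6 of the 8 that value was below 0 without the replicate that held the detection.

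At the low end, Tnfrsf18-a alone had 0.650, 0.0869 and 0.0660 CPM in TIL 1, 2 and 3, against 4242, 4830 and 4726 CPM in SR. It had the lowest value relative to non-targeting constructs, -3.45 ± 0.48 (SE, n = 3; limma adjusted p = 0.0263). Tnfrsf18-g/Tnfrsf4-f followed with -2.84 ± 0.42 and Tnfrsf4-d alone with -2.74 ± 0.44 (SE, n = 3; limma adjusted p = 0.0269 for both). These 3 calls were lost without replicate 1 (limma adjusted p = 0.303 for each) and without replicate 2 (limma adjusted p = 0.175 for each). They were also lost with the authors' log2 ratios (limma adjusted p = 0.155 for each) and with TIL 1 and TIL 2 averaged (limma adjusted p = 0.0587 for each). With an SR minimum of 200 CPM the call of Tnfrsf18-a held (limma adjusted p = 0.0473) and those of the other two did not (limma adjusted p = 0.0521 and 0.0542). Tnfrsf18-c alone, with the lowest starting level of the 42, had 0 CPM in each TIL replicate, against 213, 114 and 119 CPM in SR. Its value relative to non-targeting constructs was 1.23 ± 0.44 (SE, n = 3; limma adjusted p = 0.102), above 0 although no read was seen in TIL.

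In 5 cases of the 126 only 1 region exceeded the threshold (3.97%), against 3.19% of cases in the library and 0.794% in the non-targeting class. In 4 of the 5 it was region 1, against 31 of 66 such cases in the library. Tnfrsf9-c/Tnfrsf18-a had 111386 scaled reads in region 1 of TIL 1 and 9 in region 2, against 91491 and 60364 in SR. Tnfrsf9-b alone had 131260 and 251, against 24557 and 19317 in SR, and Tnfrsf18-d/Tnfrsf4-c/Tnfrsf9-g had 171967 and 208, against 38804 and 24047 in SR. Tnfrsf4-e/Tnfrsf18-f had 61279 and 76 in TIL 3, against 44670 and 16743 in SR. Tnfrsf4-c alone was the reverse case, with 7 and 30395 in TIL 3, against 104125 and 49821 in SR. Both regions of these constructs were abundant in SR. These 5 were singled out for this difference after their values were seen.

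The share of detected cases is given by guide as a description. Tnfrsf9-c was carried by 4 of the 42 constructs and by 4 of the 13 detected cases, and over the library it was detected in 6 of 36 cases (16.7%). Its overlapping partner Tnfrsf9-e was detected in 1 of 21 (4.76%). Tnfrsf18-c was detected in 7 of 30 library cases (23.3%), the highest share of the 27 guides, and Tnfrsf18-f in 5 of 30 (16.7%). The construct Tnfrsf18-f/Tnfrsf9-c, detected in all 3 replicates, supplied 3 of the 4 cases of Tnfrsf9-c among the 42 constructs. The same 3 cases count among the 5 of Tnfrsf18-f, so the shares of these guides are not separate observations. Tnfrsf18-a stood in 5 of the 42 constructs and 11 of the library and was detected in 0 of 33 cases, which allows a share of up to 9.09%. Such limits are 3 divided by the number of cases, an approximate 95% limit. They take cases as independent, though constructs share guides and replicates, and so are too firm. Tnfrsf4-e was at 0 of 30 cases, which allows up to 10.0%, and Tnfrsf4-f, Tnfrsf18-e and Tnfrsf18-g were also never detected. Of the 27 guides 5 thus had no detection in the library, against 2 of 20 guides for Cd28 and Il2ra. The share over all guides of the library is not given here, so 5 of 27 has no background. These 5 guides had 18 to 33 cases each, where 11.4% of all library cases were detected. The constructs of a guide differ in SR level, for Tnfrsf9-c from 263 to 4929 CPM among the 42, and the part of SR level in these shares was not tested.

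The combinations were compared as the mean of their 6 constructs minus the non-targeting mean of the same sample, TIL minus SR. None of the 7 passed (0 of 7; limma, adjusted over all combinations of the library), where 0.99% of the library's combinations were called higher and 0.0% lower. At an unadjusted p under 0.05 the count was 1 of 7, against 18.8% of all combinations. The median of the 7 was 0.083 on the log2 scale, against 0.52 over all combinations. With medians over constructs and over the non-targeting class in place of means, 5 of 7 passed, all lower, with values from -1.12 for Tnfrsf4 alone to -0.26 for Tnfrsf4 with Tnfrsf9 (limma adjusted p from 0.000889 to 0.0241). The share of all combinations passing is given for the main setting only, so 5 of 7 has no background of its own setting. In each of the 7 combinations at most 2 of 6 constructs were detected, so their TIL medians rest on undetected constructs. The non-targeting median does too, with 70 of 84 constructs detected in no TIL replicate. Median SR levels were 1460 CPM for the 42 constructs and 806 CPM for the non-targeting ones. The part of SR level in these values was not tested.

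Tnfrsf18 with Tnfrsf9, which targets GITR and CD137 together, stood highest. Relative to non-targeting constructs it was at 5.43, 2.56 and 0.32 in TIL 1, 2 and 3, against 0.77, 1.04 and 1.06 in SR. TIL 1 and TIL 2 lay above the SR values and TIL 3 below them. The difference was 1.81 ± 1.17 in log2 units (SE, n = 3; limma adjusted p = 0.504), at rank 14 from the top of the library, with 4 of 18 cases detected. It was 0.39 without replicate 1 and 3.09 without replicate 3. With the SR minimum of 200 CPM it was 1.21, with 10 CPM added in place of 1 it was 1.00, and with medians 0.83. Of the 4 detected cases 3 came from Tnfrsf18-f/Tnfrsf9-c. The 6 constructs had 178 to 4618 CPM in SR, with 3 of 6 in the highest quintile of the library. The part of SR level in this value was not tested.

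Tnfrsf4 with Tnfrsf9, which targets OX40 and CD137 together, stood lowest of the 7 and of all combinations in the library. It was at -0.66, 0.0050 and -1.59 in TIL 1, 2 and 3, against 0.68, 0.89 and 0.99 in SR. Every TIL value lay below every SR value. The difference was -1.60 ± 0.56 (SE, n = 3; limma adjusted p = 0.156, unadjusted p = 0.0231). None of its 6 constructs was detected, 0 of 18 cases, which by the same approximate limit allows a share of up to 16.7%. In the library 13.9% of combinations had no detected case. The constructs of Tnfrsf4 with Tnfrsf9 had 721 to 2876 CPM in SR, with 2 of 6 in the highest quintile of the library. Relative to non-targeting constructs the combination averaged 0.85 in SR and -0.75 in TIL, so its higher start is part of the difference. With medians in place of means the difference was -0.26.

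The other 5 combinations lay within 1 SE of the non-targeting mean. Tnfrsf4 alone had -0.079 ± 0.61, Tnfrsf9 alone 0.083 ± 0.54, Tnfrsf18 alone 0.31 ± 0.61, Tnfrsf18 with Tnfrsf4 -0.18 ± 0.52 and the triple 0.39 ± 0.58 (SE, n = 3 each; limma adjusted p from 0.763 to 0.928). The 3 single genes and Tnfrsf18 with Tnfrsf4 had 2 of 18 cases detected each, and the triple 1 of 18. In TIL 2 the triple took 3.4e-05% of reads and in TIL 3 2.98%, against 0.66 and 0.67% in SR.

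In the authors' deposited table of constructs up 2-fold, Tnfrsf18 with Tnfrsf9 had 2, 1 and 0 of 6 such constructs in replicates 1, 2 and 3, with a log2 enrichment of 2.28, 1.90 and 0. Tnfrsf4 alone and Tnfrsf9 alone also had 1.90 in replicate 2, with 1 of 6 each. In replicate 3 Tnfrsf9 alone and the triple had 2.20, again with 1 of 6 each. In the authors' deposited table Tnfrsf4 with Tnfrsf9 had 0 of 6 in each replicate. The authors' threshold for this is a log2 ratio of 1 or more in each region. By it, 10 of 126 cases of the 42 constructs were up (7.94%), against 7.45% of cases in the library, and no construct reached it in all 3 replicates.

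The 7 combinations and the non-targeting class hold each presence and absence of the 3 genes, so each gene was compared over 4 matched pairs of sets with and without it. With Tnfrsf4 added, the mean of the 4 pairs was -1.18, -0.35 and -0.39 in TIL 1, 2 and 3, against 0.30, 0.26 and 0.29 in SR. The TIL values lay below all SR values, with a difference of -0.92 ± 0.49 (SD, n = 3; exact two-sided permutation p = 0.1, adjusted over 3 genes 0.3), below 0 in 3 of 3 replicates. The 24 constructs with a Tnfrsf4 guide were detected in 5 of 72 cases (6.94%, Wilson interval 3.00 to 15.2%). The 18 without it were detected in 8 of 54 (14.8%, 7.70 to 26.6%). The median SR level was 1541 CPM with such a guide and 1441 CPM without. The intervals overlap, but they take cases as independent, so the overlap decides nothing. Constructs share guides, and 3 of the 8 cases without Tnfrsf4 came from Tnfrsf18-f/Tnfrsf9-c. Lower values of co-stimulatory combinations with Tnfrsf4 were already known from these data, so this is no independent evidence of them.

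Tnfrsf4 was not alike in all 4 pairs. Added to Tnfrsf9 it gave -1.54, -1.68 and -1.83 in the 3 replicates, a mean of -1.68 ± 0.14 (SD, n = 3). Added to the pair of Tnfrsf18 and Tnfrsf9 it gave -3.73, -2.01 and 1.46, added to Tnfrsf18 -0.98, 0.57 and -1.07, and by itself 0.33, 0.69 and -1.26. Of these 4 pairs, the one with Tnfrsf9 alone had the same direction in all 3 replicates, and no test was made of single pairs.

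With Tnfrsf18 added, the mean of the 4 pairs was 1.88, -0.30 and 0.62 in TIL 1, 2 and 3, against -0.17, -0.25 and -0.32 in SR. The difference of 0.98 ± 1.05 (SD, n = 3; exact permutation p = 0.3, adjusted 0.45) was within the spread between replicates, and TIL 2 lay within the range of SR. With medians in place of means it was 0.30 (exact permutation p = 1.0). Added to the pair of Tnfrsf4 and Tnfrsf9, Tnfrsf18 gave 2.26, 0.40 and 3.30, and added to Tnfrsf9 it gave 4.45, 0.73 and 0.0072, both above 0 in 3 of 3 replicates. With Tnfrsf9 added, the difference was 0.16 ± 0.45 (SD, n = 3; exact permutation p = 0.7, adjusted 0.7). Its direction turned with the region read, with 0.46 for region 1 alone and -0.31 for region 2 alone (exact permutation p = 0.1 for each). Added to Tnfrsf4, Tnfrsf9 gave -1.67, -1.58 and -1.32, while added to Tnfrsf18 it gave 3.26, 2.13 and -0.88.

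The pairs were also set beside the sum of their single genes, as a description. Tnfrsf4 with Tnfrsf9 had differences from its sum of -1.87, -2.37 and -0.57 in the 3 replicates, where the sum averaged 0.0039. Tnfrsf18 with Tnfrsf9 lay 1.42 ± 1.59 above its sum, Tnfrsf18 with Tnfrsf4 differed by -0.41 ± 0.80 and the triple by 0.073 ± 2.19 from theirs (SD, n = 3). For the last 3 the difference changed sign between replicates. Single genes, pairs and the triple averaged 0.10 ± 0.66, 0.0093 ± 1.34 and 0.39 ± 0.77 (SD, n = 3), with 6 of 54, 6 of 54 and 1 of 18 cases detected.

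As a group, the 7 combinations differed from non-targeting constructs by less than the spread between replicates. Their mean was 1.65, 0.95 and 0.081 in TIL 1, 2 and 3, against 0.71, 0.81 and 0.85 in SR. TIL and SR overlapped, with a difference of 0.10 ± 0.86 (SD, n = 3; exact permutation p = 0.7). The difference was below 0 with region 2 alone (-0.25), with 10 CPM added in place of 1 (-0.15), without replicate 1 (-0.32), with TIL 1 and TIL 2 averaged (-0.10), when centred on all constructs (-0.52) and with medians in place of means (-0.37).

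Finally, each TNF receptor set was compared with the same set plus Cd28, which encodes the main co-stimulatory receptor of naive T cells, plus Il2ra, a chain of the high-affinity interleukin-2 receptor, or plus both. The sets without Cd28 minus those with it gave 0.32, 0.35 and -0.021 in TIL, against 0.39, 0.52 and 0.54 in SR. The mean was 0.21 in TIL and 0.48 in SR, so the higher start of the sets without Cd28 is part of the difference. The difference over 7 matched pairs was -0.27 ± 0.26 (SD, n = 3; exact permutation p = 0.1, adjusted over 3 such comparisons 0.3), below 0 in 3 of 3 replicates. It was -0.020 with region 1 alone (exact permutation p = 0.9) and -0.52 with region 2 alone (exact permutation p = 0.1). For Il2ra the difference over 7 pairs was 0.095 ± 1.23 and for both genes over 6 pairs -0.32 ± 1.26 (SD, n = 3; exact permutation p = 0.9 and 1.0, adjusted 1.0 for both). Single pairs went either way with Cd28: Tnfrsf18 with Tnfrsf9 was 2.09 ± 1.47 above its set with Cd28, and Tnfrsf4 with Tnfrsf9 differed from its set with Cd28 by -2.02 ± 1.44 (SD, n = 3). With Il2ra the extremes were again Tnfrsf18 with Tnfrsf9 (1.29 ± 4.59) and Tnfrsf4 with Tnfrsf9 (-1.72 ± 1.59).

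Detection in the related sets was of the same order. The 48 constructs with Cd28 and without Il2ra were detected in 13 of 144 cases (9.03%), the 48 with Il2ra and without Cd28 in 10 of 144 (6.94%) and the 42 with both in 14 of 126 (11.1%), against 10.3% for the TNF receptor constructs. The Wilson intervals of all 4 overlapped, but they take cases as independent, so this is a description.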

How the data were processed

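The score of a construct, as deposited, is its reads after the authors scaled them by an unstated factor per library and rounded them; the low values show this. Bowtie2 stands in the submitters' processing notes without version or role, and no aligner or build is stated further. The authors' deposited log2 columns are ratios of TIL over SR per region; adding 10 to both values returned each within 5e-05. The authors' deposited counts of constructs up 2-fold and their log2 enrichment were copied as they stand.

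Scaled reads were divided by library totals (CPM), averaged over the 2 regions and taken as log2(CPM + 1), without a filter; this scale understates the loss of near-absent constructs. Scaled values are not raw counts, so no count model was fitted and limma was used. Fits used limma 3.58.1 in R 4.3.3 over 689 constructs or over all combinations, with Benjamini-Hochberg adjustment, and the code was run on simulated data. Those data had equal normal noise at the spread of the SR samples and small shifts. Real TIL values were near absent or abundant, so the simulation cannot decide how the fits behave on them. Single values were tested by exact two-sided permutation over 3 TIL and 3 SR samples; differences by replicate set each TIL library against the SR library of its table, since SR columns carry no replicate number. Nothing says that replicates came from separate cultures, so p-values measure the spread between these samples. Named constructs were those detected at least once (at most 10), those called higher, the 3 lowest calls and both extremes of SR level. Members, lists and thresholds were chosen with earlier results of these data known. One library construct was left out of the tables used here, and without a stated build no coordinates are printed. Alternatives were the added constant, single regions, left-out replicates, an SR minimum of 200 CPM, other centring, a replicate block, TIL 1 and TIL 2 averaged, and the authors' log2 ratios.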

Additional observations from a re-analysis of the deposited data

How the results depend on the processing

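Alternatives were an added constant of 10, either region alone, one replicate left out, an SR minimum of 200 CPM, a replicate block, TIL 1 and TIL 2 averaged, the authors' log2 ratios, centring on all constructs, and medians in place of means; those for the share of reads were chosen after seeing the data. The count of 28 constructs lower in TIL was 29 to 34 with a replicate left out, and constructs higher in TIL were 0 to 1. Constructs lower than non-targeting ones (12) were 0 to 18 with a replicate left out, 0 with the replicate block, with TIL 1 and TIL 2 averaged and with the authors' ratios, 1 with the SR minimum and 22 when centred on all constructs. Constructs higher (1) were 0 to 2 with a replicate left out, 3 with the constant of 10, 0 with the replicate block and the authors' ratios, and 7 with medians. Library shares are given for the main setting only, so counts under the alternatives have no background of their own. Same-numbered TIL and SR samples had correlations of their deviations of 0.075, -0.082 and 0.086, so they were taken to share only a number. Combinations past limma were 5 with medians and 0 with a replicate left out. Detected cases were 8 to 9 and cases up 2-fold 5 to 8 over the 2 remaining replicates. The TNF receptor mean of 0.10 was -0.15 with the constant of 10, -0.25 with region 2, -0.10 with TIL 1 and TIL 2 averaged, -0.52 when centred on all constructs and -0.37 with medians, and -0.32 to 0.54 with a replicate left out. The Tnfrsf9 difference was -0.31 with region 2 and -0.052 to 0.40 with a replicate left out, and it was 0.46 with region 1. With a replicate left out that for Tnfrsf4 was -1.08 to -0.64 and that for Tnfrsf18 0.45 to 1.49; both kept their sign in every alternative run, with Tnfrsf18 at 0.30 with medians. The difference to sets with Il2ra was -0.11 with the constant of 10, -0.11 with region 2, -0.21 with TIL 1 and TIL 2 averaged, -0.30 with medians, and -0.46 to 0.76 with a replicate left out; that to sets with Cd28 was -0.020 with region 1, -0.52 with region 2, -0.19 with the SR minimum, -0.19 with medians and -0.37 to -0.12 with a replicate left out, and that to sets with both genes was 0.047 with region 1 and -0.76 to 0.40. Among combinations, Tnfrsf4 was 0.15 and Tnfrsf18 with Tnfrsf4 0.042 with the SR minimum. Tnfrsf9 was -0.20 with the constant of 10, -0.48 with region 2, -0.094 with TIL 1 and TIL 2 averaged, -0.54 when centred on all constructs and -0.50 with medians. Tnfrsf18 was -0.31 when centred on all constructs, and the triple -0.13 with region 2, -0.23 when centred on all constructs and -0.88 with medians. With a replicate left out Tnfrsf4 ran from -0.46 to 0.51, Tnfrsf9 from -0.27 to 0.50, Tnfrsf18 from -0.23 to 0.76 and Tnfrsf18 with Tnfrsf4 from -0.48 to 0.19. Tnfrsf9-c alone was -0.17 relative to non-targeting constructs with TIL 1 and TIL 2 averaged. Constructs of one detected replicate changed sign when it was left out: Tnfrsf9-b/Tnfrsf4-b/Tnfrsf18-c ran from -1.75 to 5.09, Tnfrsf18-b from -3.29 to 4.27, Tnfrsf9-c from -3.54 to 3.86, Tnfrsf4-h from -2.39 to 4.36, Tnfrsf9-e from -1.13 to 4.45 and Tnfrsf18-d from -1.54 to 3.69 relative to non-targeting constructs. Against SR, Tnfrsf4-c ran from -6.31 to 0.59 and Tnfrsf9-a/Tnfrsf18-d from -6.24 to 0.032, and the sign turned without replicate 1 for Tnfrsf4-c and without replicate 3 for Tnfrsf9-a/Tnfrsf18-d, not without the replicate that held the detection. The causes were not tested. A design of 3 against 3 samples and near-absent constructs limit precision.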
